A study of Rattus norvegicus with 96 samples.

Results

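The genes described here mark the spiny projection neurons of the striatum, and 6 of the 17637 genes in the count table were members. Drd1 and Pdyn stood for the direct pathway, Drd2 and Adora2a for the indirect pathway, and Ppp1r1b and Rgs9 for signalling that both pathways share. The members were chosen by name for what they are known to mark, and all 6 passed the filter on low counts, under which 16879 genes were tested. RNA was sequenced from 3 hand-dissected pieces of brain, the ventral tegmental area (VTA) and the core and shell of the nucleus accumbens (NAc). They came from 32 F1 rats, male and female, bred from the inbred strains Fischer-344 and Brown Norway in both directions of the cross. In the sensitization (SST) paradigm each rat received nicotine (NIC, 0.4 mg/kg) or saline (SAL, 1.0 ml/kg) once a day for 4 days, and tissue was taken on day 17. The labels give no age for the rats whose RNA was sequenced. Of 96 libraries, the 94 that the study kept in its clustering were analysed. Groups of sex, region and treatment held 8 rats each, apart from saline VTA of males and nicotine NAc core of females, which held 7. The labels also give a prep batch for each library, and in 5 of the 6 comparisons of NIC with SAL a single batch held both treatments. Each library is bulk tissue of 1 rat and holds neurons and glia together. By the identifiers and chromosomes of the study's tables (build Rnor 6), Drd1 is ENSRNOG00000023688 on chromosome 17, Pdyn ENSRNOG00000026036 on 3, Drd2 ENSRNOG00000008428 on 8, Adora2a ENSRNOG00000001302 on 20, and Ppp1r1b ENSRNOG00000028404 and Rgs9 ENSRNOG00000003800 both on 10.

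Striatal spiny projection neurons use GABA and fall into a direct and an indirect pathway that leave the striatum by different routes. Direct pathway neurons carry the dopamine D1 receptor (Drd1), which raises cAMP, and make prodynorphin (Pdyn), the precursor of dynorphin peptides. Indirect pathway neurons carry the dopamine D2 receptor (Drd2), which lowers cAMP, and an adenosine receptor (Adora2a), which raises it. Both kinds of neuron express DARPP-32 (Ppp1r1b), a phosphatase inhibitor regulated by cAMP, and Rgs9, which shortens signals of inhibitory G proteins. The VTA holds dopamine neurons that project to the NAc, and these neurons themselves carry Drd2 as an autoreceptor. Nicotine acts on nicotinic acetylcholine receptors of VTA neurons and raises dopamine release in the NAc.

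The promoters of the members are shown as background, and no link between their sequence and the levels of the genes was tested. RefSeq promoter sequence was found for 4 of the 6 members on the build GRCr8. Adora2a and Ppp1r1b were not matched. Each line holds the 250 bases before the gene start, 5′ to 3′ on the strand of the gene. Drd1 lies at chr17:10546354-10546603 on the plus strand, Pdyn at chr3:137366504-137366753 on the minus strand, Drd2 at chr8:58605153-58605402 on the plus strand and Rgs9 at chr10:94770388-94770637 on the minus strand. Capitals mark a TATA box (TATAAA) and the GC box (GGGCGG, or CCGCCC where it reads on the other strand).
Drd1: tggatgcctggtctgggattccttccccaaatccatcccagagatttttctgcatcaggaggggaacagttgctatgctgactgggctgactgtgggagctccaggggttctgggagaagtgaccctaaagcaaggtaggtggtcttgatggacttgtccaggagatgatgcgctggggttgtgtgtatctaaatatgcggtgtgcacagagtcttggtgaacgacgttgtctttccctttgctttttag
Pdyn: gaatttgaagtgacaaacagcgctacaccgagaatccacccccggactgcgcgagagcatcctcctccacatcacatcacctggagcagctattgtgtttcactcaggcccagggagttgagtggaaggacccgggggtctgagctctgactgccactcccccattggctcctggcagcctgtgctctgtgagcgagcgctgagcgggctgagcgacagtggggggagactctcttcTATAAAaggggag
Drd2: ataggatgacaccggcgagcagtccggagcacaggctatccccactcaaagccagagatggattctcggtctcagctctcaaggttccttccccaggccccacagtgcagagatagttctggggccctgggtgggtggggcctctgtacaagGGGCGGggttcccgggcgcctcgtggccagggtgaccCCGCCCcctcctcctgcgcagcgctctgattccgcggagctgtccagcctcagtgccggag
Rgs9: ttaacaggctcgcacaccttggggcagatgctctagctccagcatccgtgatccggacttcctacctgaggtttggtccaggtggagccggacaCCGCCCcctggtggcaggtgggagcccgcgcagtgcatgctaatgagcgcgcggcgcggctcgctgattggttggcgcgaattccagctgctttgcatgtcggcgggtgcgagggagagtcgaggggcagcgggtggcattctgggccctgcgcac
On both strands, 4 motifs were searched. The Pdyn window holds TATAAA from 13 to 8 bases before the start, a motif found in 12.9% of 33469 rat promoters of that length. The Drd2 window holds the GC box at 98 to 93 bases and, on the other strand, at 61 to 56 bases before the start. In the Rgs9 window it lies at 156 to 151 bases, and 30.5% of promoters hold it. Neither TGACGTCA, the cAMP response element (1.59% of promoters), nor its core TGACG, which lies within it (18.2%), was in any of the 4 windows. The Drd1 window held none of the 4 motifs. Each window is set by the gene start of the annotation, and whether transcription begins there was not tested. The absence of a motif therefore holds for the window only. The GC content of the windows was 51.2% for Drd1, 59.2% for Pdyn, 66.0% for Drd2 and 65.6% for Rgs9.

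Library totals ranged from 15868529 to 27736905 estimated counts. Levels are given as CPM, the count scaled by the library's normalised total. In 30 of 31 VTA libraries the 7 dopaminergic neuron markers with an identifier summed to between 990.8 and 2728 CPM, against 20.3 to 101.7 CPM in NAc. In the library labelled female VTA nicotine 2 that sum was 100.1 CPM, the 6 choroid plexus markers summed to 2720 CPM against at most 915.7 in the other VTA libraries, and the 3 cortical and hippocampal neuron markers summed to 1264 CPM against at most 551.8. Its habenula and midbrain glutamatergic markers summed to 250.4 CPM against at most 182.5, and its ependymal sum was above the others too. Its oligodendrocyte, astrocyte, microglial and endothelial sums lay below those of the other VTA libraries. Male saline 1 stood apart in both NAc regions, with each of the 6 members at its lowest level of the region. In its NAc shell library the cortical and hippocampal markers summed to 3160 CPM, above the 532.6 to 2253 CPM of the other 31 libraries, and the 3 cholinergic markers summed to 2.43 CPM, below their 11.0 to 101.0 CPM. The same library lay below the others for oligodendrocyte markers (4529 CPM against 7063 or more) and septal and hypothalamic markers (39.3 CPM against 50.4 or more), and above them for striatal interneuron markers (1263 CPM against at most 841.6). In its NAc core library the cortical sum of 3490 CPM lay within the range of the others, while the cholinergic sum of 1.86 CPM lay below their 4.29 to 55.6 CPM. Several markers of female VTA nicotine 2 and of the NAc shell library of male saline 1 thus go against their region labels. In the NAc core library of male saline 1 only the cholinergic sum lay outside the range of the other libraries. Whether a dissection or a label differed was not tested. These libraries stay in the comparisons, and values without them are given beside results that rest on them or in the closing section. The remaining 2 libraries were a second library of male VTA saline 5 and female NAc core nicotine 1, whose levels of Drd1 (1.71 CPM), Adora2a (8.85 CPM) and Rgs9 (8.40 CPM) lay below all other NAc core libraries.

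The region comparison asked where the projection neuron genes were expressed. Drd1, Pdyn, Adora2a, Ppp1r1b and Rgs9 were far higher in both NAc regions than in VTA, while Drd2 was nearly as high in VTA as in NAc shell. All 6 members were lower in VTA than in NAc core at a Benjamini-Hochberg adjusted p (edgeR quasi-likelihood test, all 12 groups in one fit) under 0.05, where 40.3% of all genes were lower. Against NAc shell 5 of 6 were lower, where 40.4% of all genes were. In bulk tissue, fewer cells of a type and less RNA per cell cannot be told apart.

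Drd1, the receptor that sets direct pathway neurons apart, ranged from 0.423 to 4.49 CPM (median 1.26) in VTA, from 9.25 to 155.6 CPM (median 92.4) in NAc core and from 5.08 to 137.1 CPM (median 82.5) in NAc shell. The highest VTA library, female nicotine 2, lay just under the lowest NAc library, male saline 1 of the shell. The log2 difference of VTA from NAc core was −5.80 ± 0.20 (SE), a 55.6-fold lower level, with an adjusted p of 6.04e-45 by edgeR. Pdyn, the direct pathway's opioid peptide precursor, had a median of 12.7 CPM in VTA (6.44 to 50.3), 277.3 CPM in NAc core (33.99 to 459.3) and 276.9 CPM in NAc shell (39.2 to 423.9). VTA and NAc overlapped for Pdyn only through female VTA nicotine 2, male saline 1 of the core and male saline 1 of the shell. VTA lay 18.6-fold below NAc core for Pdyn, a log2 difference of −4.22 ± 0.17.

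Drd2, which dopamine neurons carry as well, ranged from 20.9 to 132.3 CPM (median 97.9) in VTA, from 8.32 to 313.5 CPM (median 178.0) in NAc core and from 9.38 to 205.0 CPM (median 121.0) in NAc shell. The 3 ranges overlapped widely, and the lowest VTA library was female nicotine 2, the library with low dopaminergic markers. VTA was 1.74-fold lower than NAc core, a log2 difference of −0.80 ± 0.16 with an adjusted p of 4.13e-06 by edgeR. The difference of VTA from NAc shell was −0.31 ± 0.16 on the log2 scale and missed the threshold, with an adjusted p of 0.0596 by edgeR and a 95% interval from −0.62 to −0.01. Without male saline 1 in both NAc regions it passed, at −0.34 with an adjusted p of 0.00961 by edgeR. Without female VTA nicotine 2 it missed the threshold, at −0.28 with an adjusted p of 0.0871 by edgeR.

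Adora2a, the other indirect pathway receptor, was low in VTA, where Drd2 was not. Its level was 6.42 to 11.0 CPM (median 9.21) in VTA, 11.3 to 495.1 CPM (median 280.5) in NAc core and 6.90 to 371.6 CPM (median 204.1) in NAc shell, and VTA reached the NAc range only through male saline 1 of the shell. VTA was 30.1-fold below NAc core, a log2 difference of −4.91 ± 0.20. Within VTA, where the level was low, Adora2a varied little, with an SD of 0.21 on the log2 scale over 31 libraries, as did Ppp1r1b (0.23). The SD was 0.65 for Drd1, 0.57 for Pdyn, 0.52 for Drd2 and 0.46 for Rgs9, and without female VTA nicotine 2 it was 0.58, 0.46, 0.34 and 0.46. Ppp1r1b had a median of 126.9 CPM in VTA (79.8 to 169.8), 1480 CPM in NAc core (226.4 to 2631) and 1054 CPM in NAc shell (161.2 to 1678). Rgs9 had a median of 9.73 CPM in VTA (4.597 to 18.8), 395.8 CPM in NAc core (18.03 to 846.9) and 368.1 CPM in NAc shell (22.8 to 598.9). VTA lay 11.2-fold below NAc core for Ppp1r1b and 39.6-fold below it for Rgs9, and the groups overlapped at male saline 1, whose NAc shell level of Ppp1r1b and NAc core level of Rgs9 lay within the VTA range.

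**Figure D1:**
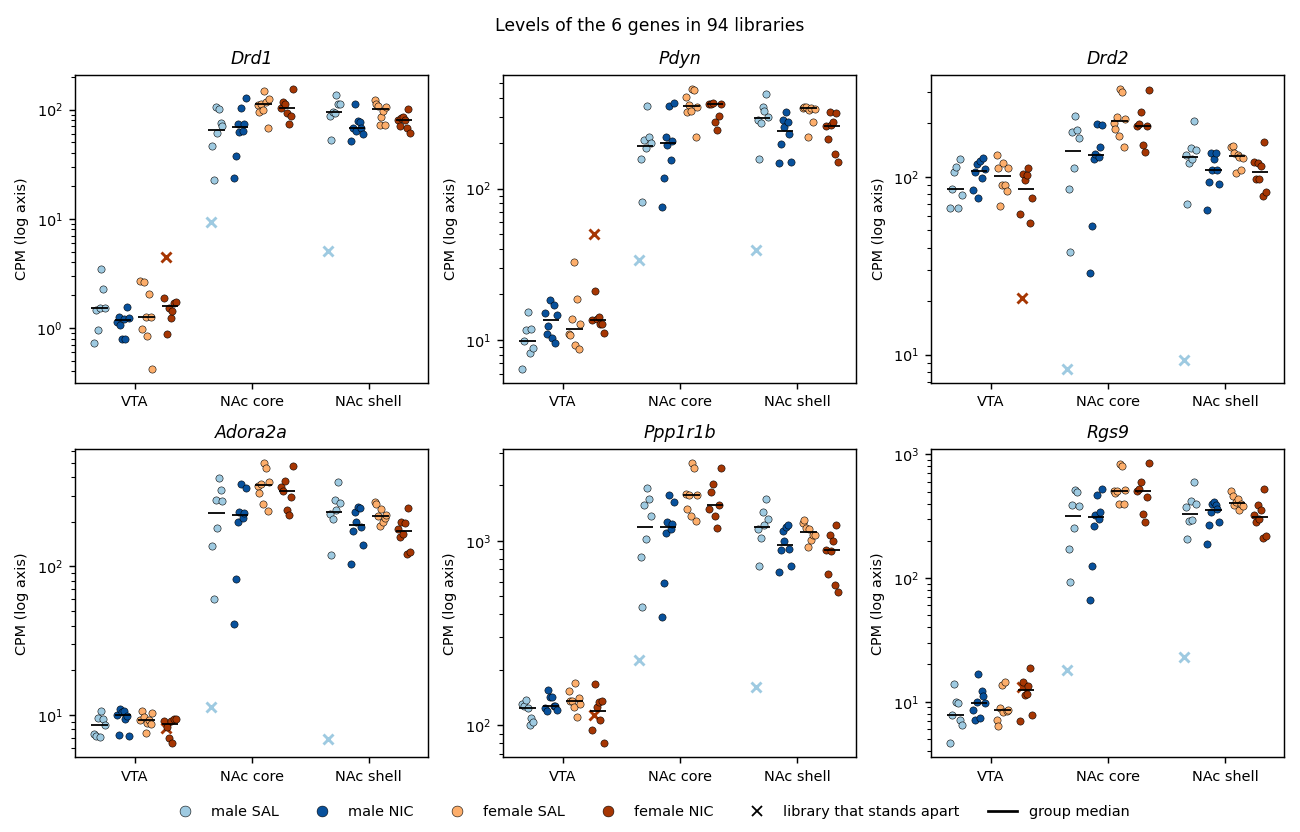
Level of each of the 6 genes in CPM (log axis) in the 94 libraries, by region, sex and treatment, with a line at each group's median and crosses for the libraries that stand apart. The Drd2 ranges of VTA and NAc overlap widely, whereas the VTA medians of the other 5 genes (1.26 CPM for Drd1, 9.21 CPM for Adora2a) lie far below those of NAc core (92.4 and 280.5 CPM).

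Between NAc core and shell 3 members were higher in core, and neither direct pathway gene passed the test. Ppp1r1b was higher in core by 0.50 ± 0.12 on the log2 scale (1.41-fold, adjusted p of 0.000805 by edgeR), Drd2 by 0.49 ± 0.16 (1.40-fold, adjusted p of 0.0109) and Adora2a by 0.42 ± 0.16 (1.33-fold, adjusted p of 0.0365). Across all genes 15.8% were higher in core at that threshold. Drd1 differed by 0.02 (95% interval −0.26 to 0.30), Pdyn by −0.03 (−0.31 to 0.25) and Rgs9 by 0.19 (−0.13 to 0.51), none of which passed. With the SAL libraries alone, 0 of 6 members passed and Drd1 changed sign, and with all mapped libraries Adora2a no longer passed. The groups overlapped for all 6 members. Septal and hypothalamic markers (8 of 8 lower in core, 5 at adjusted p), cholinergic markers (3 of 3 lower at adjusted p) and choroid plexus markers (6 of 6 lower at adjusted p) moved the other way. So did meningeal markers (8 of 8 lower, 6 at adjusted p) and ependymal markers (4 of 4 lower, 2 at adjusted p). Higher in core at adjusted p were 4 of 7 oligodendrocyte, 4 of 5 endothelial and 2 of 5 microglial markers. Cortical and hippocampal markers had summed group medians of 1954 to 3046 CPM in core and 837.4 to 1559 CPM in shell. For dopaminergic markers these were 51.4 to 80.3 CPM in core and 23.9 to 34.3 CPM in shell. The part of these markers in the result was not tested.

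Many other genes of the same neurons were lower in VTA as well, though less uniformly. Across all genes 40.3% were lower and 41.3% higher in VTA than in NAc core at adjusted p. Of 8 other direct pathway genes, 5 were lower and 2 higher. Among them Chrm4, a muscarinic receptor of direct pathway neurons, differed by −3.45 on the log2 scale and Tac1, the substance P precursor, by −2.93, whereas the transcription regulators Eya1 and Ebf1 differed by 0.87 and 0.47. Of 28 striatal signalling genes with an identifier (38 listed), 23 were lower and 3 higher, among them Arpp21, a phosphoprotein regulated by cAMP (−3.98), the kinase Dclk3 (−3.46), the adenosine A1 receptor Adora1 (0.73) and Prkacb, a catalytic subunit of protein kinase A (1.22). All 6 striatal transcription factors with an identifier (13 listed) were lower, including Bcl11b (−3.94) and Foxp1 (−2.17). The median log2 difference was −0.94, −1.77 and −2.25 for these lists, against −4.56 for the 6 members and 0.01 for all genes. Of 7 other indirect pathway genes listed, Upb1 alone had an identifier, and it differed by −1.43. Between core and shell the dopamine D3 receptor Drd3 differed by −2.07 on the log2 scale (core minus shell). At adjusted p 4 of the 8 other direct pathway genes were lower in core and 1 higher, 12 of the 28 signalling genes were higher and 2 lower, and 2 of the 6 transcription factors were lower and 1 higher. Across all genes 16.5% were lower in core and 15.8% higher, and the difference between the lists was not tested.

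Across rats the 6 genes rose and fell together in NAc. After centring log2 CPM on the mean of each sex and treatment, all 15 pairs correlated, with Pearson r from 0.951 to 0.998 and Spearman rho from 0.896 to 0.990 in NAc core (31 libraries). In NAc shell (32 libraries) r ran from 0.919 to 0.993 and rho from 0.742 to 0.968. The 30 pairs were tested by permutation within groups, and the adjusted p was 1.03e-05 for r in 29 of them, from the smallest p that 100000 permutations can give, and 5e-05 for Drd1 with Rgs9 in NAc shell. For comparison, over all pairs of the 16879 genes tested the median r was −0.002 in core and −0.003 in shell, and 0.000574% and 0.00409% of pairs reached the lowest r of the member pairs. The lowest member pair without male saline 1 had r of 0.916 in core and 0.591 in shell, reached by 0.00296% and 1.38% of all pairs. These shares are a description with no test. Both genes of a pair share a library's dissection and depth.

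Male saline 1 carried part of this in the shell. Without it r was 0.916 to 0.996 in NAc core but 0.591 to 0.971 in NAc shell, and without the 2 libraries farthest from the median it was 0.894 to 0.994 and 0.768 to 0.970. Within females alone r was 0.816 to 0.983 in core and 0.632 to 0.953 in shell, and within males 0.965 to 0.999 and 0.942 to 0.996. Both indirect pathway receptors, Drd2 and Adora2a, made the tightest pair in both regions (r = 0.998 in core and 0.993 in shell, with a permutation p of 1e-05 each, adjusted p of 1.03e-05). The pair of direct pathway genes, Drd1 and Pdyn, had r = 0.967 in core and 0.928 in shell (permutation p of 1e-05 each, adjusted p of 1.03e-05). Drd1 with Rgs9 was the loosest pair in shell, where r fell from 0.919 to 0.591 without male saline 1.

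**Figure D2:**
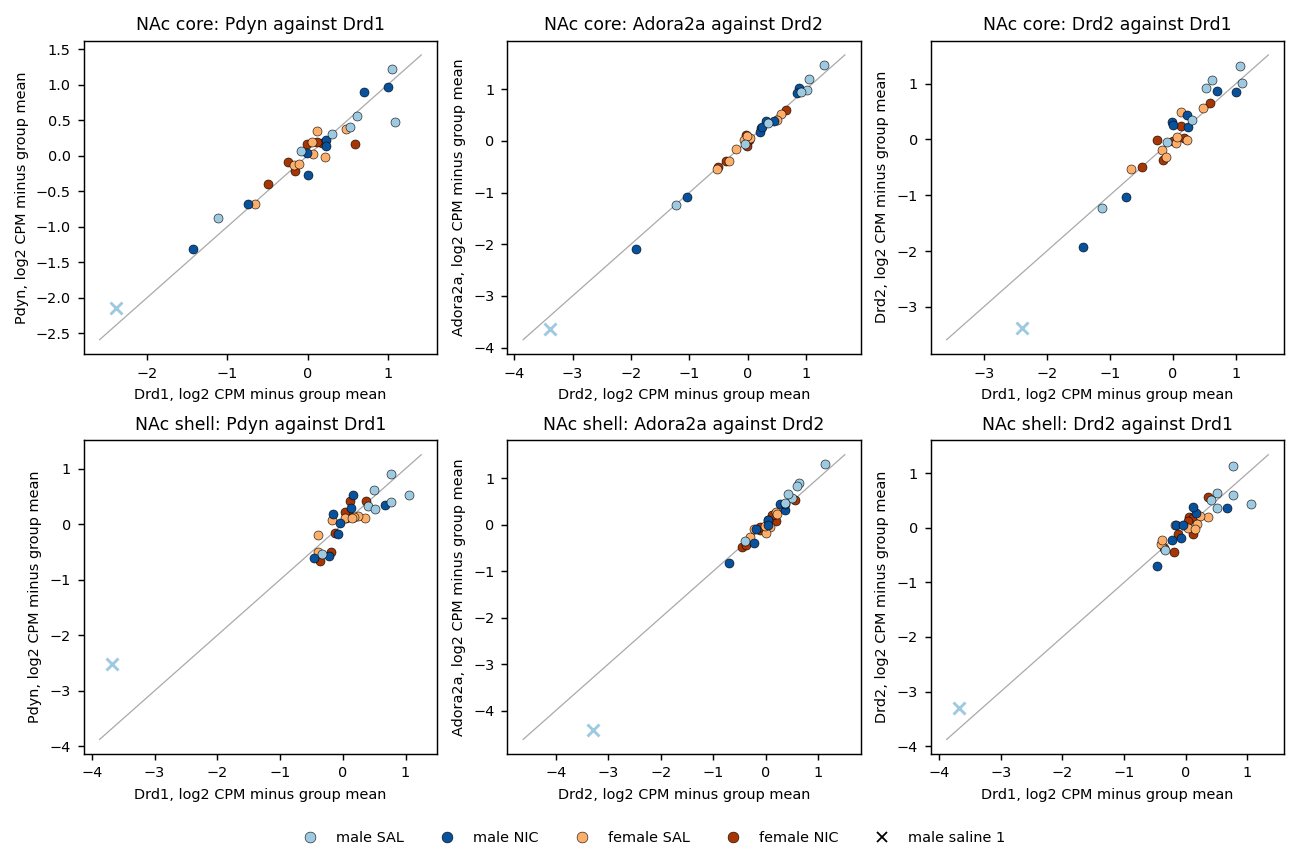
Log2 CPM minus the group mean for 3 pairs of genes in NAc core and NAc shell; each point is a library, the cross is male saline 1 and the line marks equal values. Points of Adora2a against Drd2 lie closest to a line (r = 0.998 in core), and in the shell male saline 1 lies far from the other 31 libraries.

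The spread behind this was wider in males. In NAc core the SD within groups was 0.91 to 1.42 on the log2 scale in males and 0.30 to 0.47 in females over the 6 genes, and without male saline 1 the male SD was 0.71 to 1.00. The 4 lowest NAc core libraries were the same for all 6 genes: male saline 1 was the lowest, male nicotine 10 and male saline 3 followed, and male nicotine 11 had rank 4 from the bottom. For Drd1 the lowest were 9.25 CPM in male saline 1 and 22.5 CPM in male saline 3. In NAc shell male saline 1 was again lowest for all 6, and male nicotine 10 was among the lowest 4 for 5 of them. The SD in the shell was 0.79 to 1.34 in males and 0.26 to 0.33 in females, and without male saline 1 it was 0.35 to 0.47 in males.

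Over the 63 NAc libraries and 7924 genes with a symbol, the 5 genes most like each member were taken by Pearson r of log2 CPM, centred within groups, and are given with no test. Drd1 was followed most closely by Gng7, a G protein subunit of D1 receptor signalling (r = 0.971), then by Slc35d3, Adora2a, Tac1 and Syndig1l. Pdyn was followed by the retinoic acid receptor Rarb (0.979), Tac1, Ppp1r1b, Rem2 and Slc35d3. Drd2 was closest to Adora2a (0.991), Rgs9, Syndig1l, Tac1 and Lrrc10b, and Adora2a to Drd2, Syndig1l, Tac1, Rgs9 and Ppp1r1b. Ppp1r1b was closest to Tac1 (0.979), Drd2, Rgs9, Adora2a and Asic4, and Rgs9 to Drd2 (0.989), Adora2a, Tac1, Ppp1r1b and Lrrc10b. Tac1, a direct pathway gene, was among the 5 most alike for each of the 6 members. Without male saline 1 the 30 values were 0.915 to 0.990. Symbols were known only for genes in the study's lists of changed genes, so other genes could not be named.

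Ratios within a library cancel depth and set the pathways against each other. The log2 ratio of Drd1 to Drd2 counts averaged −0.88 (SD 0.30, n = 31) in NAc core and −0.49 (SD 0.22, n = 32) in NAc shell. Pdyn to Adora2a averaged 0.06 (SD 0.41) in core and 0.46 (SD 0.40) in shell, Drd1 to Adora2a −1.58 (SD 0.35) and −1.23 (SD 0.29), and Pdyn to Drd2 0.76 (SD 0.37) and 1.21 (SD 0.22). All 4 ratios lay on average higher in shell than in core, with ranges that overlapped. Without male saline 1 the core and shell means were −0.92 (SD 0.23) and −0.47 (SD 0.21) for Drd1 to Drd2, 0.01 (SD 0.31) and 0.40 (SD 0.17) for Pdyn to Adora2a, −1.62 (SD 0.26) and −1.26 (SD 0.25) for Drd1 to Adora2a, and 0.72 (SD 0.29) and 1.18 (SD 0.17) for Pdyn to Drd2. All 4 stayed higher in shell, and much of the shell spread of Pdyn to Adora2a came from that 1 library. In VTA Drd1 to Drd2 averaged −5.92 (SD 1.00, n = 31). Counts of different genes depend on their length, so a ratio is compared between libraries and its sign carries no meaning.

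By treatment the ratio of Drd1 to Drd2 moved less than it varied between rats. In NAc shell Drd1 to Drd2 averaged −0.43 in female SAL (SD 0.15, n = 8) and −0.44 in female NIC (SD 0.16, n = 8), and −0.49 in male SAL (SD 0.33, n = 8) and −0.58 in male NIC (SD 0.20, n = 8). In NAc core it averaged −0.99 in female SAL (SD 0.20, n = 8), −0.92 in female NIC (SD 0.15, n = 7), −0.84 in male SAL (SD 0.45, n = 8) and −0.78 in male NIC (SD 0.29, n = 8). Each of these 4 NIC means lay within 1 SD of its SAL mean. Without male saline 1 the male SAL means were −0.44 (SD 0.31, n = 7) in shell and −0.98 (SD 0.22, n = 7) in core, and the NIC means still lay within 1 SD of them. In NAc shell of females 2 of the 6 ratios differed by more than 1 SD of their SAL values. Pdyn to Drd2 averaged 1.29 in SAL (SD 0.12) and 1.17 in NIC (SD 0.19), and Drd2 to Adora2a averaged −0.81 in SAL (SD 0.10) and −0.68 in NIC (SD 0.07). In VTA 3 ratios did so. In males Drd1 to Pdyn averaged −2.63 in SAL (SD 0.74, n = 7) and −3.46 in NIC (SD 0.63, n = 8), and Pdyn to Drd2 averaged −3.16 (SD 0.19) and −2.97 (SD 0.58). In females Drd2 to Adora2a averaged 3.40 (SD 0.33) and 3.07 (SD 0.88), and without nicotine 2 the NIC mean was 3.32 (SD 0.58), within 1 SD. These ratio differences were not tested. Male saline 1 held the highest Pdyn to Adora2a ratio in both regions, 1.59 in core and 2.49 in shell, where both pathways' genes were at their lowest.

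**Figure D3:**
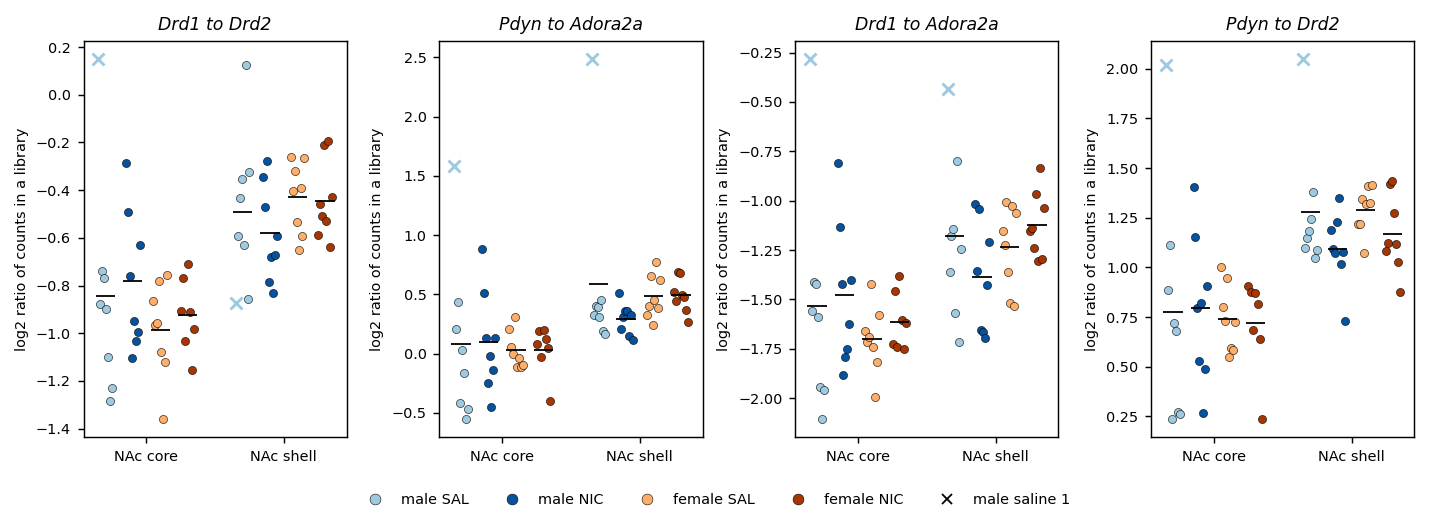
Log2 ratio of the estimated counts of a direct to an indirect pathway gene in each NAc library, by region, sex and treatment; bars are group means and crosses mark male saline 1. The ratio of Drd1 to Drd2 averages −0.88 in core and −0.49 in shell, and NIC and SAL libraries overlap in each.

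The comparison of NIC with SAL, made within each sex and region, asked whether the exposure had left a change on day 17. By edgeR no gene of the 16879 tested passed an adjusted p under 0.05 in any of the 6 comparisons (0%), and by DESeq2 0 (male VTA) to 9 genes (female NAc shell) did, none of them a member. At an unadjusted p under 0.05 between 415 (male NAc shell) and 1709 genes (female NAc shell) passed by edgeR, and the members are described at that threshold. In female NAc shell 6 of 6 members passed it, against 10.1% of all genes, and among VTA libraries of males 1 of 6 did, against 5.62%. Elsewhere 0 of 6 passed, against 6.45% of all genes in female NAc core, 9.24% in female VTA, 2.46% in male NAc shell and 9.83% in male NAc core. The 3 regions of a sex come from the same rats, so these comparisons are not independent.

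In male VTA Pdyn passed and was higher in NIC. Pdyn levels were 6.44 to 15.2 CPM (median 9.89) in 7 SAL rats and 9.59 to 18.3 CPM (median 13.5) in 8 NIC rats, and the groups overlapped, with 2 NIC rats above every SAL rat. The log2 difference was 0.40 ± 0.18 (edgeR unadjusted p of 0.0361, adjusted p of 0.866, exact two-sided permutation p of 0.0564). The identifier of Pdyn comes also from the study's own list of genes changed in male VTA, so its count here is not independent evidence. In a fit of all 12 groups Pdyn did not pass (0.40 ± 0.32, edgeR unadjusted p of 0.222) and neither did any other member. Once prep batch entered the model as a covariate Pdyn did not pass either (0.44 ± 0.37, edgeR unadjusted p of 0.258) while Ppp1r1b did (0.42 ± 0.13, edgeR unadjusted p of 0.00642). The call for Pdyn was lost, at 0.32 to 0.39, when any of 8 rats was left out: saline 1, 2, 6 or 8, or nicotine 9, 10, 13 or 15. Drd1, at 0.730 to 3.44 CPM in SAL and 0.791 to 1.57 CPM in NIC, gave −0.55 ± 0.28 (edgeR unadjusted p of 0.0633), and it passed without saline 1, saline 4 or nicotine 16, at −0.64 to −0.68, while without saline 6 it was −0.30 (edgeR unadjusted p of 0.236). Without saline 1 or saline 4 Ppp1r1b passed too, and without saline 4 Rgs9 did, so that 0 to 4 members passed over the 15 fits, in which 676 to 1554 of the 16879 genes passed. The fit with 4 members, without saline 4, was also the one with 1554 genes, against 949 with all rats. Drd2 gave 0.20 ± 0.15, Adora2a 0.16 ± 0.12, Ppp1r1b 0.16 ± 0.08 and Rgs9 0.28 ± 0.22 in the fit of all 15 rats, with Rgs9 at 0.15 without nicotine 13 and 0.45 without saline 4. Markers of other cells differed in the same comparison. All 7 oligodendrocyte markers were lower in NIC (3 passing), with summed medians of 43640 CPM in SAL and 34674 CPM in NIC, and all 3 cholinergic markers were lower (2 passing, median −1.41). All 7 dopaminergic markers were higher (1 passing), as were all 8 meningeal markers (0 passing, median 0.41). The identifiers of 4 oligodendrocyte, 2 cholinergic and 2 dopaminergic markers come from the study's list for male VTA, and the part of these markers in the values of the members was not tested.

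In female VTA no member passed, and 1 library weighed on 3 of the values. Drd1 was 0.423 to 2.66 CPM (median 1.26) in SAL and 0.882 to 4.49 CPM (median 1.604) in NIC, with a log2 difference of 0.30 ± 0.37. Pdyn was 8.69 to 32.8 CPM (median 11.9) in SAL and 11.1 to 50.3 CPM (median 13.6) in NIC, with a difference of 0.35 ± 0.34. Without female VTA nicotine 2 both changed sign, to −0.03 and −0.05. Drd2 gave −0.37 ± 0.25, and −0.22 ± 0.16 without that library, in which it was at 20.9 CPM. Adora2a gave −0.15 ± 0.10, Ppp1r1b −0.21 ± 0.13 and Rgs9 0.37 ± 0.20. Rgs9 passed an unadjusted p of 0.05 when nicotine 1 or 8 or saline 13 or 15 was left out (0.44 to 0.47), and Ppp1r1b when nicotine 3 was (−0.30).

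In male NAc core the differences were 0.01 to 0.23 on the log2 scale, each with an SE of 0.36 to 0.49. Without male NAc core saline 1 Drd2 was −0.15, Adora2a −0.17, Ppp1r1b −0.14 and Rgs9 −0.13. Each of these also fell below 0 without some other single rats, while Drd1 and Pdyn stayed above 0 whichever rat was left out. Drd1 was 9.25 to 104.5 CPM (median 65.6) in SAL and 23.5 to 126.7 CPM (median 68.7) in NIC, and the groups overlapped widely. With the prep batch as a covariate all 6 members changed sign, to between −0.12 (Pdyn) and −0.88 (Adora2a), and within prep batch C, the only one with both treatments (2 SAL, 4 NIC), they were lower in NIC by 0.36 to 1.28. The NIC and SAL libraries of that batch overlapped for all 6, and its NIC rats include nicotine 10 and 11, both among the 4 lowest NAc core libraries. In male NAc shell the differences ran from −0.27 (Drd1) to 0.02 (Rgs9), with SE of 0.29 to 0.42. Without male NAc shell saline 1, where 831 of the 16879 genes passed the unadjusted threshold against 415 with it, 2 members passed and were lower in NIC, Drd1 at −0.45 (edgeR p of 0.0202) and Ppp1r1b at −0.33 (edgeR p of 0.0468), and Rgs9 was −0.15. In prep batch C (2 SAL, 3 NIC) all 6 were lower in NIC by 0.55 to 0.83. For Drd1 the SAL libraries (112.5 and 113.1 CPM) of that batch lay just above its highest NIC library (112.0 CPM). The share of all genes that separate in so few libraries was not counted. In female NAc core the differences were −0.04 (Drd1) to −0.15 (Pdyn), with SE of 0.13 to 0.21, and 5 of the 6 changed sign with the prep batch as a covariate. Pdyn passed at −0.23 when saline 16 was left out.

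**Figure D4:**
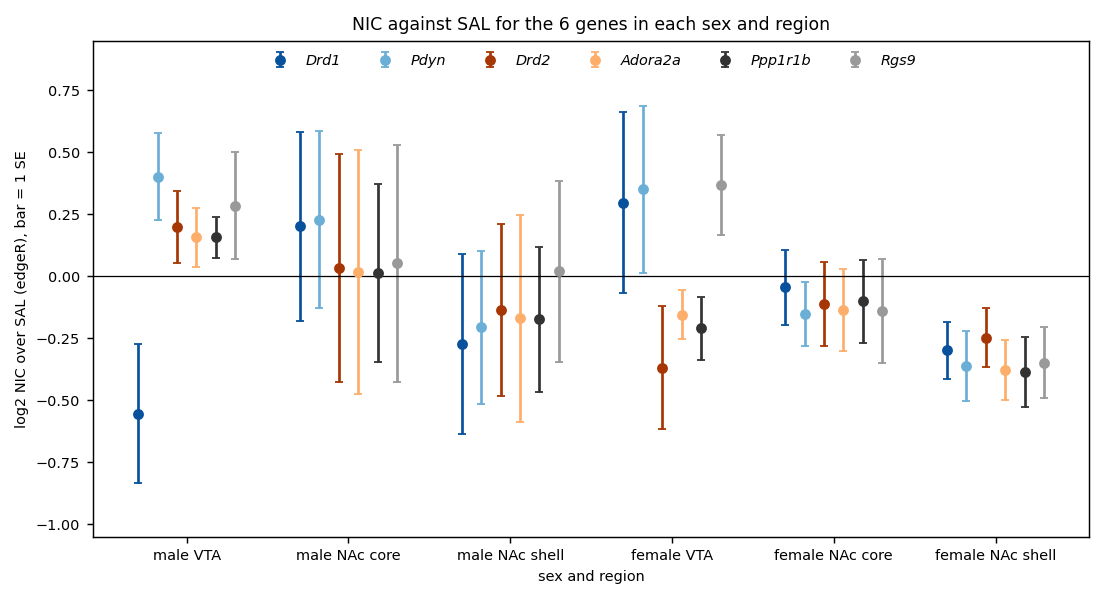
Log2 difference of NIC from SAL by edgeR for each of the 6 genes in each sex and region; bars are 1 SE. In female NAc shell the 6 values lie together between −0.25 and −0.38, while in male NAc core, at 0.01 to 0.23, the bars are wider than the values.

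Female NAc shell was the comparison in which all 6 members were lower in NIC at an unadjusted p under 0.05. Lower calls made up 4.88% of all genes there, and no member passed an adjusted p under 0.05. The identifiers of all 6 members come from the study's own list of genes changed in this comparison, so that the count of 6 is not independent evidence of it. Drd1 was 72.5 to 122.6 CPM (median 101.7) in 8 SAL rats and 60.6 to 100.4 CPM (median 80.2) in 8 NIC rats, a log2 difference of −0.30 ± 0.11 (edgeR p of 0.0167, adjusted p of 0.466, exact two-sided permutation p of 0.0404). Pdyn was 220.9 to 347.4 CPM (median 340.0) in SAL and 149.8 to 320.3 CPM (median 261.2) in NIC, a difference of −0.36 ± 0.14 (edgeR p of 0.0187, adjusted p of 0.466, exact permutation p of 0.0320). Of the NIC rats 3 lay below every SAL rat for Drd1 and 3 for Pdyn, and the groups overlapped.

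The indirect pathway and signalling genes were lower as well. Adora2a was 186.6 to 272.6 CPM (median 219.5) in SAL and 121.4 to 246.8 CPM (median 172.4) in NIC, a difference of −0.38 ± 0.12 (edgeR p of 0.00611, adjusted p of 0.466, exact permutation p of 0.0107). Drd2 was 105.0 to 149.0 CPM (median 130.9) in SAL and 77.8 to 156.3 CPM (median 106.3) in NIC, a difference of −0.25 ± 0.12 (edgeR p of 0.0493, adjusted p of 0.490, exact permutation p of 0.0563). The highest Drd2 level of all 16 rats was in a NIC rat, and 4 NIC rats lay below every SAL rat. Ppp1r1b gave −0.38 ± 0.14 (edgeR p of 0.0137, exact permutation p of 0.0154), with medians of 1122 CPM in SAL and 886.7 CPM in NIC. Rgs9 gave −0.35 ± 0.14 (edgeR p of 0.0254, exact permutation p of 0.0264), with medians of 401.3 and 311.5 CPM and 6 NIC rats below every SAL rat.

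**Figure D5:**
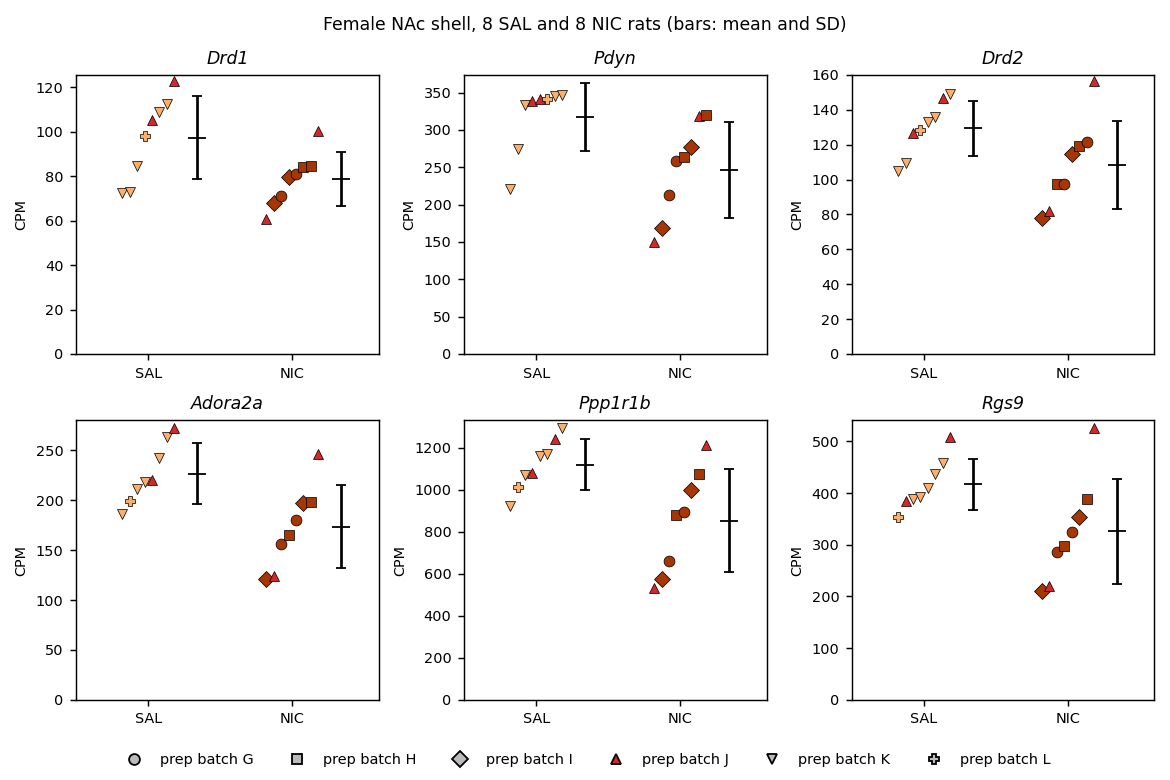
CPM of the 6 genes in female NAc shell of 8 SAL and 8 NIC rats; symbols are prep batches and bars are mean and SD. The NIC medians lie below the SAL medians for each gene (80.2 against 101.7 CPM for Drd1), and the groups overlap; batch J, with 2 rats of each treatment, spans nearly the whole NIC range.

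With the prep batch as a covariate 0 of 6 members passed the unadjusted threshold in female NAc shell, and in a fit of all 12 groups 0 of 6 did. The log2 differences were −0.19 (Drd2) to −0.53 (Pdyn) with SE of 0.23 to 0.31 in the former and −0.25 (Drd2) to −0.39 (Ppp1r1b) with SE of 0.24 to 0.32 in the latter, so no member changed sign. Prep batch J, which held 2 SAL and 2 NIC rats, was the only batch with both treatments. Within it all 6 members were lower in NIC, by 0.27 (Drd2) to 0.64 (Pdyn) on the log2 scale, with overlapping values for Drd2, Adora2a, Ppp1r1b and Rgs9. Leaving out 1 rat at a time gave 4 to 6 members past the unadjusted threshold, and 1192 to 2503 of the 16879 genes. Rgs9 was lost without saline 10, nicotine 6 or nicotine 8, and Drd2 in 11 of the 16 fits, at −0.19 to −0.26.

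Further striatal genes were lower in NIC in female NAc shell, where 10.1% of all genes passed the unadjusted threshold and 4.88% passed as lower. Of the 8 other direct pathway genes 6 passed and were lower, among them Tac1 (−0.43) and Chrm4 (−0.31), and of the 28 signalling genes 14 were lower and 2 higher, among them the phosphodiesterase Pde1b (−0.32), Gng7 (−0.31), the cannabinoid receptor Cnr1 (0.25) and Prkar1b, a regulatory subunit of protein kinase A (0.19). Of 6 transcription factors 4 were lower, including Rarb (−0.29) and Bcl11b (−0.26), and Dlx1 was higher (0.52). The identifiers of 6, 19 and 5 of these genes come from the study's list for this comparison, so the counts are not independent evidence. The median log2 difference was −0.36, −0.22 and −0.25 for these lists, against 0.01 for all genes. These medians carry the same limit, since a listed gene was named only through the study's lists of changed genes. Several markers of other cells passed the unadjusted threshold as well. Higher in NIC were Slc17a6 (1.00) and Chrnb4 (1.16) of 3 habenula and midbrain markers, 3 of 4 ependymal markers, and 4 of 8 septal and hypothalamic markers including Avp (3.75) and Trpc4 (0.61). The 3 habenula and midbrain markers summed to 10.3 to 33.1 CPM in NIC and 7.79 to 15.9 CPM in SAL, the 4 ependymal markers to 16.5 to 53.6 and 8.59 to 31.2 CPM, and the 8 septal and hypothalamic markers to 79.3 to 202.3 and 76.2 to 157.9 CPM. Of 7 oligodendrocyte markers 2 were higher, Cldn11 (0.29) and Mag (0.30), with sums of 7843 to 19781 CPM in NIC and 7478 to 12295 CPM in SAL. One choroid plexus marker of 6, Clic6 (1.16), and 1 dopaminergic marker of 7, Slc18a2 (1.19), were higher too. Lower in NIC were Lamp5 (−0.29) of the 3 cortical and hippocampal markers, with the other two below 0 without passing, and Slc6a13 (−0.40) of the 8 meningeal markers, of which 6 estimates were below 0. The cortical and hippocampal markers summed to 532.6 to 1559 CPM in NIC and 707.2 to 1399 CPM in SAL. Each marker that passed has its identifier in the study's list for this comparison, so these counts are not independent evidence either. Of the markers counted here, the dopaminergic marker Foxa2 was at 0 in every NAc shell library. The part of these markers in the lower levels of the members was not tested. In the other 5 comparisons, where 2.46% to 9.83% of all genes passed, at most 1 of the 8 other direct pathway genes did. Of the 28 signalling genes 4 passed as higher and 1 as lower in NIC in female NAc core, where 6.45% of all genes passed, and at most 3 did elsewhere. Of the 6 transcription factors 2 passed in female NAc core, where all 6 estimates were below 0 (median −0.22), and 0 passed in the other 4 comparisons. The identifiers of 4 of the signalling genes and 3 of the transcription factors come from the study's list for female NAc core.

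Whether the NIC difference itself differed between groups was tested directly. Between NAc shell and core no member passed an unadjusted p under 0.05 in males (3.10% of all genes did) or in females (5.01%). In females the differences of the shell effect from the core effect were −0.15 (Drd2) to −0.29 (Ppp1r1b), with 95% intervals that all held 0, such as −0.75 to 0.16 for Ppp1r1b. The difference of the NIC effect in females from that in males passed for 0 of 6 members in NAc core (8.89% of all genes) and 0 of 6 in NAc shell (8.07%). In VTA it passed for Ppp1r1b, at −0.36 ± 0.16 (edgeR unadjusted p of 0.0286, adjusted p of 0.407), against 11.0% of all genes. Ppp1r1b in VTA was 99.9 to 137.8 CPM in male SAL, 118.9 to 155.5 CPM in male NIC, 111.4 to 169.8 CPM in female SAL and 79.8 to 167.2 CPM in female NIC, and all 4 ranges overlapped. Without female VTA nicotine 2 Adora2a passed as well, at −0.32 (edgeR p of 0.0490), and 1727 of the 16879 genes passed, against 1853 with it.

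Male and female levels, averaged over treatment, differed in NAc core. All 6 members were lower in males, by 0.64 (Ppp1r1b) to 0.85 (Rgs9) on the log2 scale with SE of 0.21 to 0.29, and 5 of 6 passed an adjusted p under 0.05, where 17.5% of all genes were lower in males. Drd1 medians in NAc core were 65.6 and 68.7 CPM in male SAL and NIC and 111.2 and 102.8 CPM in female SAL and NIC, a difference of −0.71 ± 0.22 (edgeR adjusted p of 0.0139). Adora2a missed the threshold (−0.71 ± 0.28, adjusted p of 0.0542). Without male saline 1 all 6 passed, at −0.55 to −0.75, as did 5253 of the 16879 genes in either direction, against 5568 with it. With all mapped libraries, which add female NAc core nicotine 1, 0 of 6 passed. The 3 cholinergic markers were lower in males too, with medians of 14.4 and 15.1 CPM against 31.5 and 28.9 CPM in females, as were the 4 ependymal markers, with medians of 10.2 and 9.58 CPM in male SAL and NIC against 26.5 and 20.8 CPM in females. The 3 cortical and hippocampal markers were higher in males, with medians of 3046 and 2662 CPM against 1954 and 2247 CPM, though their ranges overlapped (1385 to 3612 and 1626 to 3095 CPM). Striatal interneuron markers had medians of 822.6 and 712.8 CPM in males against 504.5 and 557.6 CPM in females, and meningeal markers 542.9 and 716.1 CPM against 411.0 and 467.5 CPM. Endothelial, dopaminergic, choroid plexus and red blood cell medians were also higher in both male groups than in both female groups, and oligodendrocyte, microglial and septal and hypothalamic medians lower. The part of these markers in the result was not tested. In NAc core no prep batch held both sexes, so that sex and prep batch cannot be told apart. In VTA (2.36% of all genes called) and in NAc shell (21.3%) 0 of 6 members differed between the sexes at adjusted p. Drd1 differed by −0.14 in NAc shell (95% interval −0.53 to 0.25).

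The prep batch named in the labels was tested within each sex and region beside treatment. It passed for 0 of 36 tests of a member at an adjusted p under 0.05 and for 0 of 36 at an unadjusted p (edgeR quasi-likelihood F test, smallest p of 0.0542, for Ppp1r1b in male VTA). Of all genes tested, 0%, 0.0118% and 0.0237% were called at adjusted p in the VTA, NAc core and NAc shell of females, and 0.00592%, 0.0237% and 0.0178% in those of males.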

How the data were processed

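RNA was sequenced from 96 rat libraries, and the authors deposited estimated counts per gene: per the study's methods and processing notes, fastp 0.20.0 did the trimming, Salmon 0.12.0 the quantification on Rnor 6, and tximport the sums per gene. The deposited values are whole numbers, a rounding the sources used here do not explain. Every count column was matched to a labelled sample, and the 94 libraries of the study's clustering plot were analysed. Symbols came from the study's tables of changed genes, which name 7926 identifiers. The members, the gene and marker lists and the tests were chosen with earlier results of these data known.

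Genes with a count above 10 after size factors in at least 3 libraries were tested (16879 of 17637) with edgeR 4.0.16 (quasi-likelihood, TMM, R 4.3.3) and Benjamini-Hochberg adjustment. NIC was compared with SAL within each sex and region, and regions were compared in one fit of 12 groups. Single genes were also tested by exact two-sided permutation, and pairs by permutation within groups. The log2 CPM used a prior count of 2. The scripts were tested on simulated data. Each region of a rat shares its number, so numbers pair samples: same-rat profiles correlated with a median r of 0.205 between NAc core and shell (−0.016 for other rats), 0.0764 between VTA and core and 0.0741 between VTA and shell. Members are always named. From each list the text names the 2 genes of smallest p in a direction, and other genes it names were picked after their values were seen. Alternatives were DESeq2 1.42.0, its size factors, other filters, all mapped libraries, one fit of 12 groups, prep batch, the rat as a block, SAL alone, a prior count of 0.5 and leaving out each rat. Chosen after seeing the data were leaving out female VTA nicotine 2 between regions and for the difference of the NIC effect between sexes, and, for levels of the sexes, leaving out male saline 1 or female VTA nicotine 2, all mapped libraries and DESeq2 size factors. The labels name 1 rat for each number, and p-values of tests within a region measure the spread between rats. The fit of 12 groups and the shell minus core NIC effect count more than 1 library of a rat as separate. Their p-values measure the spread between libraries, and for regions and that effect the rat as a block was an alternative.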

Additional observations from a re-analysis of the deposited data

Results flagged for a closer look

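Over 72 groups of a gene, sex, region and treatment, each with 7 or 8 libraries, 4 held a library that stood apart from the rest by Dixon's criterion at 95%, which chance meets in about 1 of 20 groups. The Drd1 level of male NAc shell nicotine 12 was 112.0 CPM, with the next library at 79.1 CPM, a gap of 0.540 of the range of the group. In female VTA nicotine 2, the library with low dopaminergic and high choroid plexus markers, Drd1 was 4.49 CPM (next 1.90 CPM, a gap of 0.718) and Pdyn was 50.3 CPM (next 21.2 CPM, a gap of 0.744). In female VTA saline 13, Pdyn was 32.8 CPM (next 18.6 CPM, a gap of 0.588).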

How the results depend on the processing

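Of 1419 values recomputed under an alternative, 1245 kept their direction and their side of the threshold and 74 changed sign, 0 of them at a p under 0.05. The cause was not tested for any of these changes. With all 12 groups in one fit, 0 members passed in male VTA and 0 in female NAc shell, and 743 genes did in male NAc shell. With the prep batch as a covariate, NIC minus SAL in male NAc core was −0.16 for Drd1, −0.12 for Pdyn, −0.80 for Drd2, −0.88 for Adora2a, −0.73 for Ppp1r1b and −0.86 for Rgs9. In male NAc shell it gave 2013 genes and −0.75 for Rgs9, in female VTA 295 genes and −0.0035 for Drd1, and in female NAc shell 629 genes and 0 members. In female NAc core it gave 0.051 for Drd1, 0.29 for Drd2, 0.10 for Adora2a, 0.18 for Ppp1r1b and 0.35 for Rgs9. The female minus male NIC effect then gave 462 genes in VTA. In NAc core that effect was 0.20 for Drd1, 1.07 for Drd2, 0.96 for Adora2a, 0.89 for Ppp1r1b and 1.19 for Rgs9. In NAc shell it was 0.0096 for Drd1, 0.25 for Pdyn, 0.51 for Drd2, 0.43 for Adora2a, 0.31 for Ppp1r1b and 0.50 for Rgs9. With SAL libraries only, core minus shell gave 0 members, 3593 genes and −0.17 for Drd1. With all mapped libraries Drd1 was −0.029 there, and 0 members differed between sexes in NAc core. DESeq2 size factors gave 2 members for the sex difference of the NIC effect in VTA.

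With the rat as a replicate block, which pairs regions, Drd1 core minus shell was −0.0077, and the shell minus core NIC effect in males passed for 887 genes (523 without the block) and was 0.024 for Rgs9. The block changed no other call on the members. NIC and SAL rats share no numbers within a sex, so that comparison could not be paired.

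The genes counted here passed an unadjusted p under 0.05 (an adjusted one for core minus shell). Leaving out 1 rat at a time gave 0 to 4 members and 676 to 1554 genes in male VTA, 1046 to 1995 genes in male NAc core, 0 to 2 members and 299 to 831 genes in male NAc shell, and 0 to 1 members in female VTA and in female NAc core. The count of genes moved by over 1.5 times without male VTA saline 4 (1554), male NAc core nicotine 9 (1046), male NAc shell nicotine 14 (636) and male NAc shell saline 1 (831). In male NAc core Drd2 ran from −0.15 to 0.20, Adora2a from −0.17 to 0.21, Ppp1r1b from −0.14 to 0.17 and Rgs9 from −0.13 to 0.22. In male NAc shell Pdyn ran from −0.37 to −0.082, Drd2 from −0.31 to 0.020, Adora2a from −0.35 to −0.011 and Rgs9 from −0.15 to 0.21. In female VTA Drd1 ran from −0.032 to 0.47 and Pdyn from −0.050 to 0.63, and in female NAc core Drd1 from −0.16 to 0.036. Also in female NAc core, Drd2 ran from −0.24 to −0.013, Adora2a from −0.26 to −0.050, Ppp1r1b from −0.21 to −0.00084 and Rgs9 from −0.31 to −0.028. Without male saline 1, the shell minus core NIC effect in males passed for 1132 genes. The female minus male NIC effect was then 0.045 for Drd2, 0.036 for Adora2a and 0.051 for Ppp1r1b in NAc core, and 0.16 for Drd1, 0.011 for Pdyn and 0.069 for Drd2 in NAc shell, and male minus female Drd2 in NAc shell was 0.024. Without female VTA nicotine 2, 2 members passed for the sex difference of the NIC effect in VTA. Drd1 in VTA rests on 8 to 106 counts a library.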
